A study of Homo sapiens with 9 samples.

Results

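Interferon-stimulated genes are the genes that cells switch on when an interferon binds its receptor. A list of 44 such genes was followed here in bulk RNA sequencing of LIM1215, a human colorectal cancer cell line that cetuximab, an antibody against the epidermal growth factor receptor, initially inhibits. Members were taken by gene symbol from the 58920 genes listed in the count files and kept with at least 10 counts over all libraries. All 44 were listed, and all 44 were among the 19102 genes tested.

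The series holds 9 libraries from 3 lines, with 3 libraries per line. LIM1215-parental was grown without cetuximab in parallel with the selection. LIM1215-R1 and LIM1215-R2, labelled Resistant_1 and Resistant_2, were selected independently from the parental line with rising cetuximab concentrations. Both resistant lines are mixed, non-clonal populations in which the study found activating HRAS mutations in a subpopulation, and each carries its own history of culture. All lines were sampled untreated in the same serum-containing medium, so every value below is a basal level. After selection, the study kept the resistant lines in cetuximab unless stated otherwise, and it describes a withdrawal before drug treatments. How long they had been without cetuximab when sampled is not given. The study calls the libraries of a line technical replicates, so p-values measure the spread between libraries, which may be technical. The line, its months of culture, its earlier exposure to cetuximab and its harvest cannot be told apart.

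Interferons are secreted proteins that warn cells of a virus. Type I interferons bind the IFNAR receptor, type III the IFNLR1 receptor and type II (interferon gamma) the IFNGR receptor. Receptor-bound kinases (JAK1 and TYK2 for types I and III, JAK1 and JAK2 for type II) then activate STAT proteins, and for types I and III the complex that enters the nucleus holds STAT2 and IRF9. This complex reads a DNA element called the ISRE and induces genes that detect viral RNA, degrade it, block its translation or hold virus particles back. Epithelial cells, including those of the gut, hold all the parts of this pathway, and many of its target genes keep a basal level without added interferon.

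Each library held between 13737416 and 18725014 counts. Epithelial and intestinal markers were present in all 3 lines: EPCAM, KRT8, KRT18, CDH1, VIL1, CDX1, CDX2 and LGALS4 were expressed, from 104 CPM (counts in 1000000 of the library's counts after TMM scaling) for CDX1 up to 8084 CPM for KRT8, whereas KRT20 was at 0 counts in all 9 libraries. Their levels moved between the lines: CDX1 fell by 0.85 and 0.65 on the log2 scale in LIM1215-R1 and LIM1215-R2, CDX2 by 0.44 and 0.55, LGALS4 by 0.23 and 0.37 and EPCAM by 0.26 and 0.32, while KRT8, KRT18 and VIL1 were called higher in both and CDH1 in neither direction. Of 10 markers of immune cells, fibroblasts and endothelium, PTPRC, CD3E and MS4A1 were at 0 counts, 3 (COL3A1, DCN and VWF) had between 2 and 7 counts over all libraries, PECAM1 had 15, LYZ had 28 and COL1A1 had 134. CD68, at 6.79 to 14.3 CPM, was the only one above 2 CPM in any library. It was called higher in LIM1215-R1 (0.70, adjusted p = 9.24e-05) and not in LIM1215-R2 (0.26, adjusted p = 0.167). All 15 counts of PECAM1 were in the parental line, which made it called lower in both resistant lines, and LYZ was called lower in LIM1215-R2 (adjusted p = 0.00546). The part of these marker differences in the results below was not tested. Fewer cells with an active gene and less RNA per cell cannot be told apart in bulk samples.

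Interferon-stimulated genes were higher in both resistant lines than in the parental line. The 44 genes together took 1438 to 1540 CPM in the parental libraries, 2173 to 2368 CPM in LIM1215-R1 and 2180 to 2435 CPM in LIM1215-R2, and the parental range did not overlap either resistant range. Between 2 and 5 members had no count in a parental library. None did in LIM1215-R1 and at most 1 did in LIM1215-R2. IFI27, OAS2, IFI6 and IFIT1, each more than 10-fold higher in both resistant lines, were among the largest steps.

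A member is called when edgeR's quasi-likelihood test gave a Benjamini-Hochberg adjusted p of at most 0.01 over all tested genes, and is a differentially expressed gene (DEG) when its log2 fold change also reached 1.5 in size. In LIM1215-R1 against LIM1215-parental, 27 of 44 members (61.4%) were called higher, beside 14.0% of all tested genes, and 2 (4.55%) were called lower, beside 13.4%. Of the members, 14 (31.8%) were DEGs and higher, beside 3.24% of all tested genes, and 0 were DEGs and lower, beside 1.91%. In LIM1215-R2 against LIM1215-parental, 27 (61.4%) were called higher, beside 12.3%, and 1 (2.27%) was called lower, beside 11.6%. There, 13 (29.5%) were DEGs and higher, beside 2.63%, and 0 were DEGs and lower, beside 2.19%. Both comparisons use the same parental libraries and are therefore not independent. The shares of all tested genes called higher and lower also stand beside the counts by role below.

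The median log2 fold change of the members was 0.89 in LIM1215-R1 and 0.89 in LIM1215-R2, while that of all tested genes was -0.01 and -0.00. With members at 0 counts in the parental line set to their lower bound, or left out where no bound could be given, the medians were 0.89 and 0.88. In LIM1215-R1, 34 members had all 3 libraries above all parental ones, 3 had all below and 7 overlapped; over all tested genes, 21.6% lay all above and 22.4% all below. In LIM1215-R2, the members split into 31 above, 2 below and 11 overlapping, beside 21.2% and 21.6% of all tested genes.

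**Figure D1:**
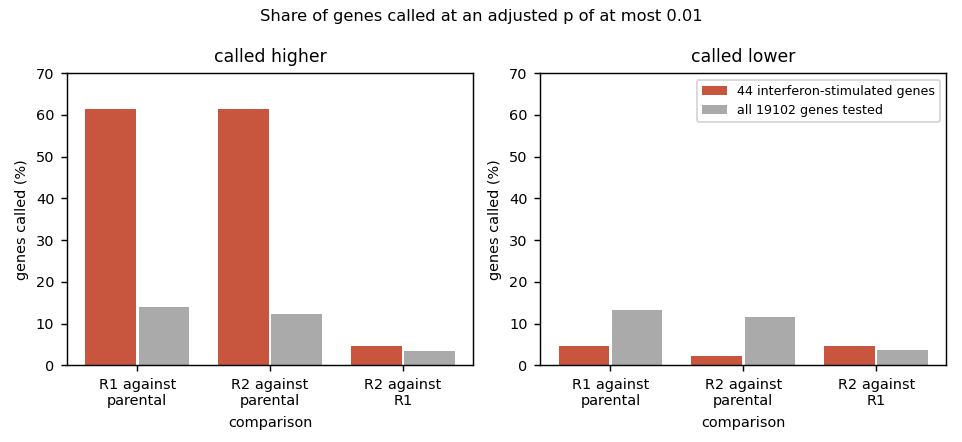
Percentage of genes called higher (left) and lower (right) at an adjusted p of at most 0.01 in each of 3 comparisons, for the 44 interferon-stimulated genes (red) and all 19102 tested genes (grey). Against the parental line, 61.4% of the members were called higher in each resistant line; between the resistant lines, the members' shares were 4.55% in each direction.

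**Figure D2:**
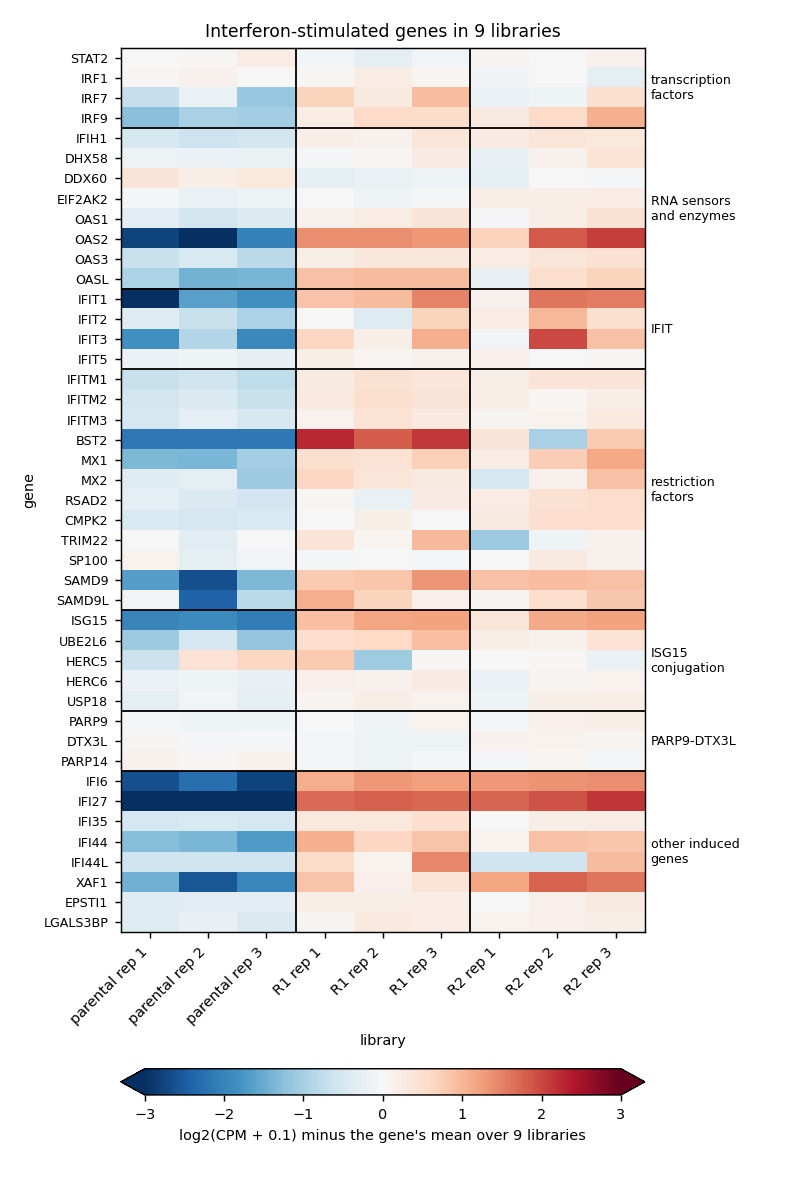
log2(CPM + 0.1) of each of the 44 genes in each of the 9 libraries, minus the gene's mean over the 9 libraries; rows are genes grouped by role, columns are libraries, and values beyond 3 in size take the end colours. IFI27, IFI6, OAS2, IFIT1 and ISG15 are low in all 3 parental libraries and high in all 6 resistant ones, while STAT2, IRF1, SP100, HERC5, PARP9, DTX3L and PARP14 show no such step.

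To show what the members have in common upstream of their transcripts, promoter sequences were taken from RefSeq (GRCh38.p14). Each ran from 250 bases before to 50 bases after the start of the promoter entry. A promoter was matched for 35 of the 44 members. The ones without were IRF7, DHX58, OAS2, OASL, IFIT2, IFITM2, MX2, TRIM22 and USP18. The core of the ISRE was searched on both strands as GAAA, any 2 bases and GAAA again. It was found for 24 of the 35 members (68.6%), against 4.38% of 27305 genes with a promoter entry. Of the 12 DEG members with a promoter, 9 (75.0%) held it, and of the 23 other members 15 (65.2%) did. The core bound by STAT dimers after interferon gamma (GAS) was searched in the same way as TTC, any 3 bases and GAA. It was found for 11 of the 35 (31.4%), against 9.38% of the 27305 genes. Because the list was made of genes known to respond to interferon, the shares over all 35 describe the list and not the lines. The difference between DEG and other members was not tested. A match is a description of the letters and not of a bound site.

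Of the DEG members with a promoter, IRF9, UBE2L6 and XAF1 held no ISRE core and could not be shown. For 6 of the other 9, with large or clear steps described below, the first promoter entry with a core was used. Stretches around its ISRE cores are shown here. They are read 5′ to 3′ on the strand of the gene, with the matched cores in capitals; a core on the other strand reads as TTTC, any 2 bases and TTTC, and cores that overlap run together.
IFI27, chr14:94110603-94110675, plus strand: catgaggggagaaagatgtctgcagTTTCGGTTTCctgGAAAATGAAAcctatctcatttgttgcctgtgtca
IFI6, chr1:27672251-27672373, minus strand: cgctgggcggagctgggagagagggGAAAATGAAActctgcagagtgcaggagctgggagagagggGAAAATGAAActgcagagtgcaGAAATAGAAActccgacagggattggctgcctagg
ISG15, chr1:1013359-1013424, plus strand: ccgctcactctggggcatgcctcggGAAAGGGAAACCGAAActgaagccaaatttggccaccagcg
BST2, chr19:17405720-17405785, minus strand: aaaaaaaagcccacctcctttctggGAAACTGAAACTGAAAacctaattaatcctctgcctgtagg
IFIT1, chr10:89392482-89392554, plus strand: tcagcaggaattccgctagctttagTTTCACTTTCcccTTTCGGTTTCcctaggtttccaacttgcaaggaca
SAMD9, chr7:93118081-93118140, minus strand: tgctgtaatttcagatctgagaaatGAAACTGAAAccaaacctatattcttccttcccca
IFI6 held 3 cores, and SAMD9 held 1. The other 4 promoters shown held 2 each. In all 6, the cores lay between 83 and 146 bases before the start of the promoter entry. For IFI27, the stretch lies inside the gene span, which starts at position 94105894.

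Among the transcription factors of the list, IRF9, the DNA-binding part of the complex that reads the ISRE, was the only one of 4 called. IRF9 was at 4.54, 5.56 and 5.31 CPM in the parental libraries, 12.9, 16.4 and 16.2 CPM in LIM1215-R1 and 13.4, 16.4 and 23.1 CPM in LIM1215-R2. Every resistant library lay more than 2-fold above every parental one, and LIM1215-R2 replicate 3 was the highest of the 9. The log2 fold change was 1.56 (SE 0.17, adjusted p = 1.38e-08) in LIM1215-R1 and 1.78 (SE 0.16, adjusted p = 9.11e-10) in LIM1215-R2. Without parental replicate 1, the value for LIM1215-R1 was 1.48 (adjusted p = 4.57e-07), just under the DEG threshold.

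The other three factors, STAT2, IRF1 and IRF7, were not called in either line. STAT2, the partner of IRF9, was at 34.2 ± 3.19 CPM (SD, n = 3) in the parental line, 28.9 ± 2.46 in LIM1215-R1 and 33.8 ± 1.54 in LIM1215-R2. All its LIM1215-R1 libraries lay below the parental ones (log2 fold change -0.25, SE 0.08, adjusted p = 0.0178). In LIM1215-R2 they overlapped (-0.02, SE 0.08, adjusted p = 0.885). IRF1, which mostly follows interferon gamma, lay between 13.9 and 20.0 CPM in all 9 libraries. IRF7, which amplifies the response by driving interferon genes, had 56 counts in all: 9 in the parental line, 29 in LIM1215-R1 and 18 in LIM1215-R2. Its libraries in both resistant lines lay above the parental ones, with log2 fold changes of 1.68 (SE 0.56, adjusted p = 0.019) and 1.01 (SE 0.61, adjusted p = 0.231).

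The RNA sensors and RNA-activated enzymes comprised 8 members, of which 5 were called higher and 1 lower in LIM1215-R1, and 6 higher and 1 lower in LIM1215-R2. OAS2, 1 of the oligoadenylate synthetases that signal for RNA degradation on binding double-stranded RNA, was at 0.118, 0 and 0.263 CPM in the parental libraries. It was at 3.80, 3.83 and 3.57 CPM in LIM1215-R1 and at 2.32, 5.20 and 6.14 CPM in LIM1215-R2. The parental line was close to 0 with 7 counts in total, and the spread was wide in LIM1215-R2 and narrow in LIM1215-R1. This amounted to log2 fold changes of 4.66 (SE 0.47, adjusted p = 5.95e-09) and 4.94 (SE 0.45, adjusted p = 1.03e-09). Without parental replicate 3 they were 5.68 and 5.96.

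OASL, a relative of the synthetases without their enzymatic activity, was at 0.531, 0.361 and 0.368 CPM in the parental libraries. Its levels were 2.15, 2.26 and 2.25 CPM in LIM1215-R1 and 0.951, 1.67 and 1.83 CPM in LIM1215-R2. All LIM1215-R2 libraries lay above the parental and below the LIM1215-R1 libraries. The log2 fold change was 2.38 (SE 0.33, adjusted p = 1.44e-06) in LIM1215-R1 and 1.79 (SE 0.35, adjusted p = 0.000200) in LIM1215-R2; the difference between the resistant lines was -0.59 (SE 0.26) and not called (adjusted p = 0.160).

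OAS1 and OAS3, the other synthetases, rose by less from higher levels. The log2 fold change of OAS1 was 0.68 (SE 0.11) in LIM1215-R1 and 0.64 (SE 0.11) in LIM1215-R2, and that of OAS3 was 0.92 (SE 0.07) and 0.98 (SE 0.07). OAS3 carried most of the family's counts, at 91.2 ± 10.7 CPM in the parental line, 172 ± 11.5 in LIM1215-R1 and 180 ± 14.8 in LIM1215-R2 (SD, n = 3). OAS1, OAS3 and OAS2 lie next to each other on chromosome 12, with about 5 kb between neighbours. IFIH1 (MDA5), the cytoplasmic sensor of long double-stranded RNA, rose by 0.78 (SE 0.09) and 0.86 (SE 0.09) on the log2 scale.

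EIF2AK2 (PKR), the kinase that stops translation on binding double-stranded RNA, was called in LIM1215-R2 and not in LIM1215-R1. It lay between 162 and 179 CPM in the parental line, between 170 and 184 CPM in LIM1215-R1 and between 213 and 216 CPM in LIM1215-R2. The log2 fold change was 0.34 (SE 0.05, adjusted p = 1.95e-06) in LIM1215-R2 and 0.07 (SE 0.05, adjusted p = 0.309) in LIM1215-R1, and LIM1215-R2 was called higher than LIM1215-R1 (0.27, SE 0.05, adjusted p = 0.000218). DHX58 (LGP2), a regulator of the RNA sensors, was not called in either line, with log2 fold changes of 0.27 and 0.30.

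DDX60, an RNA helicase linked to viral RNA sensing, went the other way. It was at 20.9 ± 1.40 CPM in the parental line, 14.7 ± 0.674 in LIM1215-R1 and 15.8 ± 1.67 in LIM1215-R2 (SD, n = 3), and no resistant library reached the lowest parental one. The log2 fold change was -0.51 (SE 0.09, adjusted p = 7.81e-05) in LIM1215-R1 and -0.41 (SE 0.09, adjusted p = 0.000993) in LIM1215-R2. The call in LIM1215-R2 was lost without its replicate 1 (-0.32, adjusted p = 0.0167). The promoter of DDX60 held 2 ISRE cores.

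The IFIT genes encode proteins that bind the ends of foreign RNA and block its translation, and IFIT2, IFIT3, IFIT1 and IFIT5 lie in this order on chromosome 10. IFIT1 was at 0.118, 0.506 and 0.420 CPM in the parental libraries, 3.31, 3.51 and 5.19 CPM in LIM1215-R1 and 1.96, 5.64 and 5.36 CPM in LIM1215-R2. Its log2 fold changes were 3.52 (SE 0.42, adjusted p = 1.23e-07) and 3.62 (SE 0.42, adjusted p = 6.13e-08). Parental and resistant libraries were far apart, and LIM1215-R2 replicate 1 was the lowest of the 6 resistant ones.

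IFIT3 was at 0.177, 0.434 and 0.158 CPM in the parental libraries, 1.41, 1.00 and 2.0 CPM in LIM1215-R1 and 0.833, 3.78 and 1.70 CPM in LIM1215-R2. The groups did not overlap, but LIM1215-R2 spanned more than a 4-fold range between its own libraries. The log2 fold changes were 2.57 (SE 0.56, adjusted p = 0.000530) and 3.08 (SE 0.52, adjusted p = 3.07e-05), the latter falling to 2.33 without LIM1215-R2 replicate 2.

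IFIT2 was at 0.826, 0.650 and 0.525 CPM in the parental libraries, 1.10, 0.816 and 1.82 CPM in LIM1215-R1 and 1.31, 2.29 and 1.57 CPM in LIM1215-R2. Only LIM1215-R2 was clear of the parental libraries. It was called there (log2 fold change 1.36, SE 0.34, adjusted p = 0.00266) and not in LIM1215-R1 (0.90, SE 0.36, adjusted p = 0.0547). The call did not survive leaving out parental replicate 3 (1.20, adjusted p = 0.0218) or LIM1215-R2 replicate 2 (1.10, adjusted p = 0.0347), whereas IFIT2 was a DEG there without parental replicate 1 (1.56) or LIM1215-R2 replicate 1 (1.53). IFIT5, which was already at 19.4 ± 0.782 CPM in the parental line (SD, n = 3), was called in LIM1215-R1 (0.30, SE 0.08, adjusted p = 0.00427) and not in LIM1215-R2 (0.24, SE 0.08, adjusted p = 0.0235). The call in LIM1215-R1 was lost without parental replicate 1 (0.31, adjusted p = 0.0131) or 3 (0.27, adjusted p = 0.0295) and without its own replicate 1 (0.28, adjusted p = 0.0168) or 3 (0.30, adjusted p = 0.0181), and with scaling by total counts only (0.27, adjusted p = 0.0105).

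The restriction factors, proteins that block entry, replication or release of viruses, numbered 12; 7 were called higher in LIM1215-R1, 8 in LIM1215-R2 and 0 lower in either. BST2 (tetherin), which holds budding virus at the cell surface, was at 0 counts in all 3 parental libraries. It was at 2.02, 1.44 and 1.81 CPM in LIM1215-R1 and at 0.476, 0.124 and 0.653 CPM in LIM1215-R2. The 3 lines were separated with no overlap, in the order parental, LIM1215-R2, LIM1215-R1. Against a floor of 3 counts over the parental libraries, the 85 counts in LIM1215-R1 put BST2 at least 29.3-fold higher, and the 20 counts in LIM1215-R2 at least 6.88-fold higher. Both bounds take the resistant counts as observed and leave out their counting error.

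MX1, a GTPase that traps viral nucleocapsids, was at 10.6, 10.5 and 13.2 CPM in the parental libraries, 37.9, 36.5 and 44.3 CPM in LIM1215-R1 and 31.6, 45.2 and 61.0 CPM in LIM1215-R2. Every resistant library was more than 2-fold above every parental one. MX1 rose by 1.78 (SE 0.16, adjusted p = 5.12e-10) and 1.99 (SE 0.16, adjusted p = 4.27e-11) on the log2 scale. MX2, its neighbour on chromosome 21, had 88 counts in all and was not called in either line (1.18, SE 0.47, adjusted p = 0.0519 and 0.99, SE 0.48, adjusted p = 0.130).

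SAMD9, which restricts poxviruses, was at 0.531, 0.217 and 0.683 CPM in the parental libraries, 3.31, 3.45 and 4.82 CPM in LIM1215-R1 and 3.57, 3.65 and 3.53 CPM in LIM1215-R2. The resistant libraries overlapped each other and stood apart from the parental ones. On the log2 scale, SAMD9 rose by 2.93 (SE 0.28, adjusted p = 2.84e-09) and 2.82 (SE 0.29, adjusted p = 7.08e-09). Its neighbour SAMD9L had 80 counts and was not called (1.77, SE 0.56, adjusted p = 0.0144 and 1.57, SE 0.58, adjusted p = 0.0382), although in LIM1215-R1 it was called without parental replicate 1 (2.60, adjusted p = 0.00506), when low counts were not filtered (1.78, adjusted p = 0.00357) and after thinning (2.08, adjusted p = 0.00819).

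The IFITM proteins block viral fusion in membranes, and their 3 genes lie within a short stretch of chromosome 11. IFITM1 was at 128, 133 and 120 CPM in the parental libraries, 243, 277 and 261 CPM in LIM1215-R1 and 227, 264 and 267 CPM in LIM1215-R2. It rose by 1.04 (SE 0.06, adjusted p = 6.92e-14) and 0.99 (SE 0.06, adjusted p = 1.69e-13) on the log2 scale, with no overlap with the parental line. IFITM2 rose by 0.94 (SE 0.07) and 0.70 (SE 0.07), and IFITM3 by 0.70 (SE 0.06) and 0.59 (SE 0.06). Their exact levels are uncertain because 15.8% of the 50-base windows of the IFITM1 transcript, 10.0% of IFITM2 and 20.8% of IFITM3 also occur in other genes listed in the files.

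CMPK2, a mitochondrial nucleotide kinase, rose by 0.54 (SE 0.11, adjusted p = 0.000179) in LIM1215-R1 and 0.91 (SE 0.10, adjusted p = 4.42e-08) in LIM1215-R2. RSAD2 (viperin), which makes a chain-terminating nucleotide and lies opposite CMPK2 with a 751-base overlap on the other strand, had 242 counts. It was called in LIM1215-R2 (0.88, SE 0.25, adjusted p = 0.00711) and not in LIM1215-R1 (0.51, SE 0.26, adjusted p = 0.142). Its call was lost without parental replicate 1 (0.97, adjusted p = 0.0125), 2 (0.88, adjusted p = 0.0163) or 3 (0.80, adjusted p = 0.0378), and likewise without replicate 2 of LIM1215-R2 (0.86, adjusted p = 0.0259) or 3 (0.82, adjusted p = 0.0315). It was also lost with the DESeq2 Wald test (0.89, adjusted p = 0.0325) and after thinning to the smallest library (0.76, adjusted p = 0.0315). TRIM22, which had 215 counts, and SP100, a component of nuclear bodies, were not called in either line.

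**Figure D3:**
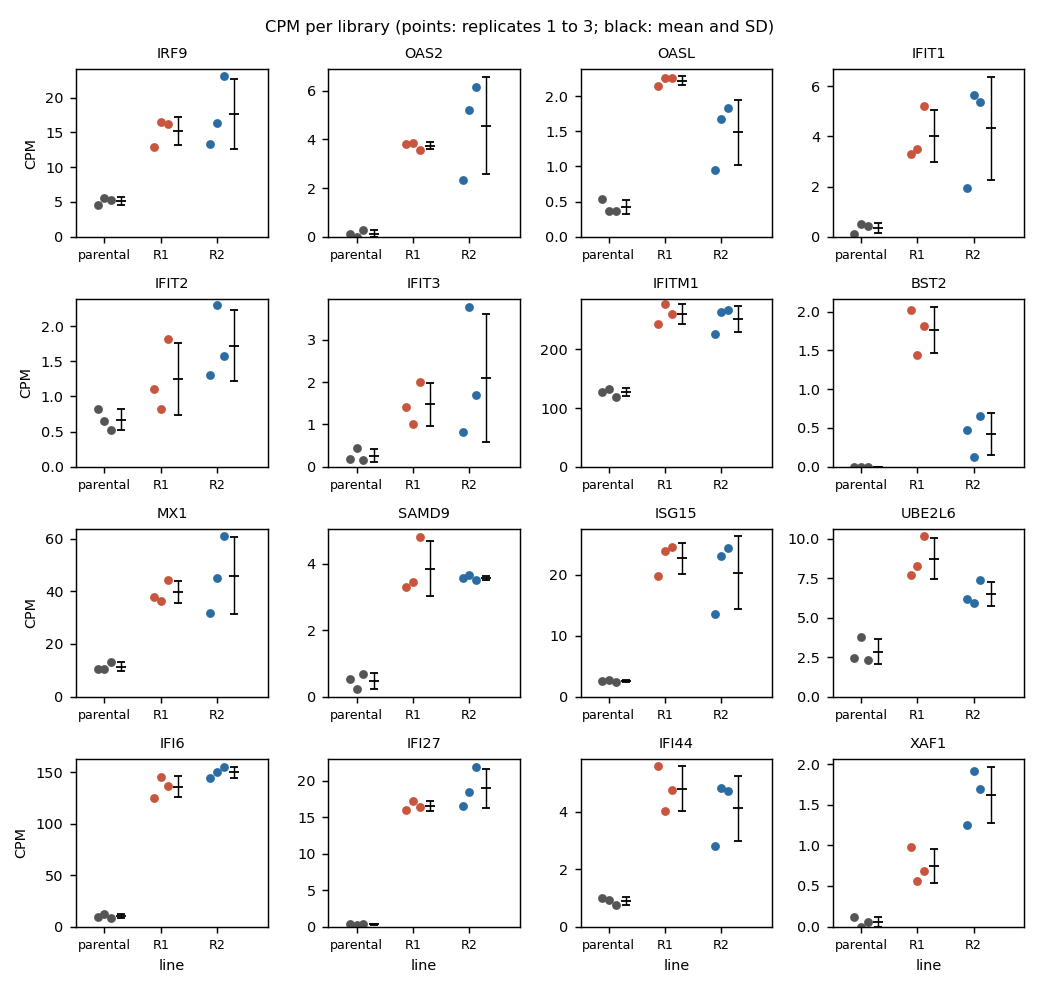
CPM in each library for the 16 members called in any comparison with a log2 fold change reaching 1 in size; points are replicates 1 to 3 of LIM1215-parental (grey), LIM1215-R1 (red) and LIM1215-R2 (blue), and black bars give the mean and SD of each line. For IFIT2, LIM1215-R1 overlaps the parental line; for the other 15 genes both resistant lines lie above it, and BST2 is at 0 in the parental line.

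ISG15 is a ubiquitin-like protein that is attached to other proteins. It was grouped with UBE2L6 and HERC5, which attach it, USP18, which removes it, and HERC6, a relative of HERC5. Of these 5 members, 4 were called higher in LIM1215-R1, 2 in LIM1215-R2 and 0 lower in either. ISG15 itself was at 2.60, 2.75 and 2.36 CPM in the parental libraries, 19.8, 23.9 and 24.5 CPM in LIM1215-R1 and 13.5, 23.1 and 24.4 CPM in LIM1215-R2. The parental libraries were close together and far below the resistant ones. The log2 fold changes were 3.15 (SE 0.19, adjusted p = 1.66e-13) and 2.99 (SE 0.19, adjusted p = 6.70e-13).

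UBE2L6, the enzyme that passes ISG15 on to its ligase, was at 2.48, 3.76 and 2.31 CPM in the parental libraries, 7.73, 8.29 and 10.2 CPM in LIM1215-R1 and 6.18, 5.95 and 7.38 CPM in LIM1215-R2. The 3 lines did not overlap, with LIM1215-R2 in the middle. The log2 fold change was 1.65 (SE 0.17, adjusted p = 1.35e-08) in LIM1215-R1 and 1.22 (SE 0.18, adjusted p = 4.40e-06) in LIM1215-R2, which made UBE2L6 a DEG in the first line alone. The difference between the resistant lines was -0.43 (SE 0.15) and not called (adjusted p = 0.0636).

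HERC5, the human ligase for ISG15, had 39 counts in all and overlapped between the lines; it was not called. Its relative HERC6 was called in LIM1215-R1 (0.36, SE 0.08, adjusted p = 0.000951) but not in LIM1215-R2 (0.17, SE 0.08, adjusted p = 0.126), and the call was lost without LIM1215-R1 replicate 3 (0.33, adjusted p = 0.0101). USP18, the protease that removes ISG15 and dampens the receptor, was called in LIM1215-R1 (0.34, SE 0.10, adjusted p = 0.00811). That call was lost without parental replicate 1 (0.30, adjusted p = 0.0388) or 3 (0.30, adjusted p = 0.0440), without LIM1215-R1 replicate 1 (0.36, adjusted p = 0.0104), 2 (0.30, adjusted p = 0.0314) or 3 (0.35, adjusted p = 0.0199) and likewise without replicate 2 of LIM1215-R2 (0.34, adjusted p = 0.0113). The DESeq2 Wald test (0.34, adjusted p = 0.0134), scaling by total counts only (0.30, adjusted p = 0.0169) and thinning (0.31, adjusted p = 0.0184) ended it too. In LIM1215-R2, USP18 was not called (0.29, SE 0.10, adjusted p = 0.0231), but it was without parental replicate 2 (0.36, adjusted p = 0.00939) or LIM1215-R2 replicate 1 (0.40, adjusted p = 0.00443). Of the USP18 transcript, 26.4% of the windows are shared with other listed genes, so its counts are uncertain.

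PARP9, DTX3L and PARP14 lie together on chromosome 3, PARP9 and DTX3L overlapping by 447 bases on opposite strands, and encode ADP-ribosylation enzymes and the ubiquitin ligase that works with PARP9. None of the 3 was called higher in either line. PARP14 was called lower in LIM1215-R1 by a small step (-0.18, SE 0.05, adjusted p = 0.00923) and was at -0.11 in LIM1215-R2 (adjusted p = 0.133). The call in LIM1215-R1 was lost in 7 of the 9 fits that left out 1 library, with log2 fold changes of -0.21 to -0.14 over all 9; it was kept without parental replicate 2 and without LIM1215-R1 replicate 1. PARP9 was not called in LIM1215-R2 (0.22, adjusted p = 0.0274), but it was without LIM1215-R2 replicate 1 (0.29, adjusted p = 0.00912). All 3 promoters held 1 ISRE core.

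The remaining 8 members are further interferon-induced genes, of which 7 were called higher in each resistant line. IFI27, a small mitochondrial protein, was at 0.354, 0.217 and 0.315 CPM in the parental libraries, 16.0, 17.3 and 16.3 CPM in LIM1215-R1 and 16.6, 18.5 and 21.9 CPM in LIM1215-R2. The parental line had 15 counts in total, against 797 and 912 in the resistant lines. IFI27 thus had log2 fold changes of 5.74 (SE 0.21, adjusted p = 4.08e-18) and 5.94 (SE 0.21, adjusted p = 1.17e-18).

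IFI6, an interferon-induced protein of the endoplasmic reticulum and mitochondria, was at 9.44, 12.3 and 8.46 CPM in the parental libraries, 125, 146 and 137 CPM in LIM1215-R1 and 144, 150 and 155 CPM in LIM1215-R2. No member had a lower adjusted p. The log2 fold changes were 3.78 (SE 0.09, adjusted p = 2.64e-22) and 3.92 (SE 0.09, adjusted p = 9.51e-23). Per kilobase of its canonical transcript, IFI6 went from 12.4 CPM in the parental line to 168 and 185 CPM. Of its windows, 21.9% are shared with other listed genes, chiefly the non-coding LINC02574, so its counts may be incomplete.

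IFI44, a cytoplasmic antiviral protein, was at 1.00, 0.939 and 0.735 CPM in the parental libraries, 5.58, 4.02 and 4.76 CPM in LIM1215-R1 and 2.79, 4.83 and 4.70 CPM in LIM1215-R2. The parental libraries lay below all the others. The log2 fold changes were 2.43 (SE 0.25, adjusted p = 1.14e-08) and 2.20 (SE 0.26, adjusted p = 1.00e-07). Its neighbour IFI44L had 11 counts in all, with 0 in the parental line, 8 in LIM1215-R1 and 3 in LIM1215-R2. Against the same floor, the 8 counts were 2.76-fold higher, with their own counting error left out. IFI44L was not called in either line.

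XAF1, which opposes the caspase inhibitor XIAP, was at 0.118, 0 and 0.0525 CPM in the parental libraries, 0.981, 0.565 and 0.688 CPM in LIM1215-R1 and 1.25, 1.92 and 1.70 CPM in LIM1215-R2. With 3 parental counts, the ratio was 12.4 (95% exact counting interval 3.92 to 62.9) for LIM1215-R1 and 26.8 (8.85 to 133) for LIM1215-R2. The 3 lines did not overlap, and LIM1215-R2 was the highest. XAF1 was called in both lines (adjusted p = 7.22e-05 and 1.18e-07), and its fitted log2 fold changes, 3.47 and 4.58, were 4.31 and 5.42 without parental replicate 1.

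IFI35, EPSTI1 and LGALS3BP rose by smaller steps. IFI35 rose by 0.88 (SE 0.09) and 0.63 (SE 0.09) on the log2 scale, EPSTI1 by 0.55 (SE 0.12) and 0.50 (SE 0.12), and LGALS3BP, a secreted glycoprotein, by 0.53 (SE 0.05) and 0.48 (SE 0.05). For EPSTI1 in LIM1215-R2, the call was lost without that line's replicate 3 (0.44, adjusted p = 0.0104). LGALS3BP had the most counts of the 44, at 374 ± 26.5 CPM in the parental line, 540 ± 38.4 in LIM1215-R1 and 521 ± 14.7 in LIM1215-R2 (SD, n = 3).

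**Figure D4:**
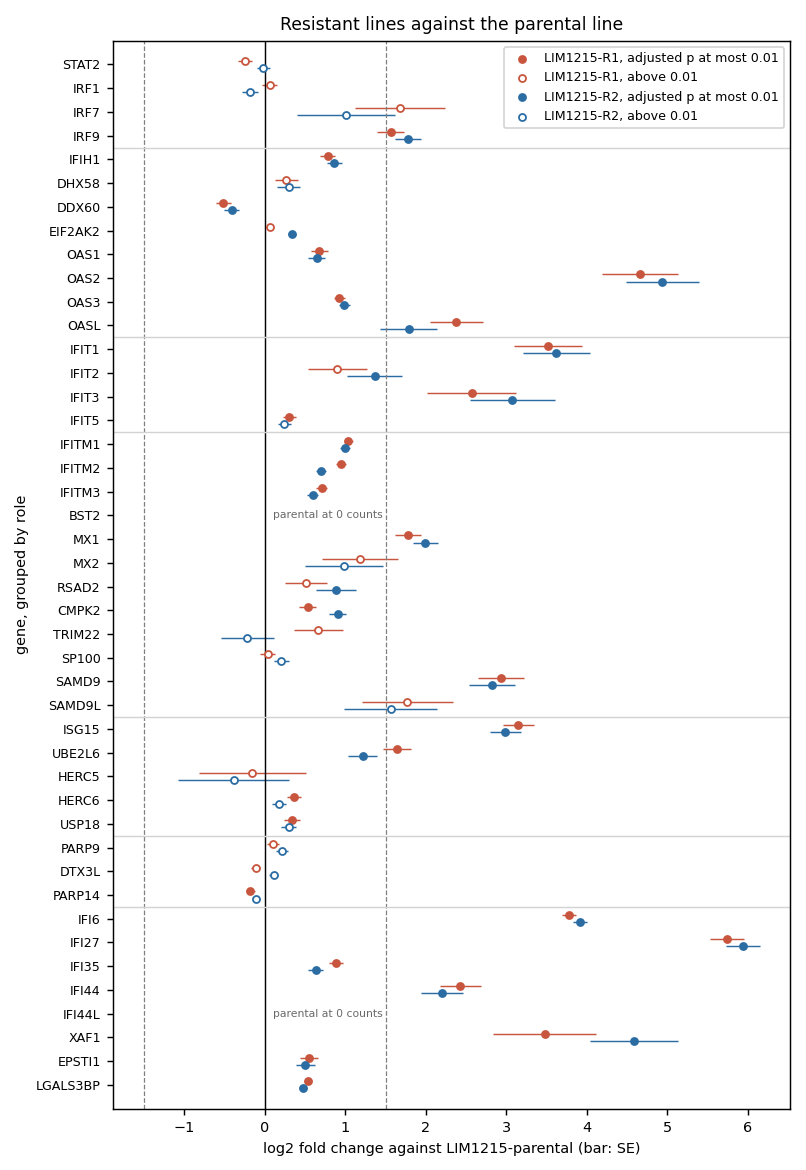
log2 fold change of each gene in LIM1215-R1 (red) and LIM1215-R2 (blue) against LIM1215-parental, with its SE as a bar; filled points have an adjusted p of at most 0.01, open points do not, dashed lines mark 1.5 in size, and no value is drawn for BST2 and IFI44L, which were at 0 counts in the parental line. The highest values drawn are those of IFI27 (5.74 and 5.94) and the lowest in LIM1215-R1 and LIM1215-R2 those of DDX60 (-0.51 and -0.41).

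Members differed widely in level. On the scale of CPM per kilobase of canonical transcript, the members highest in the parental line were IFITM3 at 289, IFITM1 at 190 and LGALS3BP at 170, and these 3 rose by 0.48 to 1.04 on the log2 scale. ISG15 went from 4.03 to 35.7 and 31.9 CPM per kilobase. OAS2, XAF1, SAMD9 and IFIT1, all under 0.1 CPM per kilobase in the parental line, reached at most 1.00 CPM per kilobase in the resistant lines. Of the 44 members, 14 or 15 were under 1 CPM in each parental library, 5 to 7 in LIM1215-R1 and 5 to 9 in LIM1215-R2. With at least 10 counts required in every library, a filter that drops genes near 0 in the parental line, 30 members were tested and 6 and 5 of them were DEGs in LIM1215-R1 and LIM1215-R2.

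The resistant lines were also compared with each other. In LIM1215-R2 against LIM1215-R1, 2 members (4.55%) were called higher, beside 3.39% of all tested genes, and 2 (4.55%) were called lower, beside 3.77%. Of the members, 0 were DEGs and higher, beside 0.215%, and 1 (2.27%) was a DEG and lower, beside 0.550%. The median log2 difference of the members was -0.04, and 5 members lay all higher in LIM1215-R2, 7 all lower and 32 overlapped, beside 14% of all tested genes all higher and 14% all lower. The called share of the members was close to that of all tested genes.

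BST2 was the DEG, at -2.07 (SE 0.41, adjusted p = 0.000960), with all LIM1215-R2 libraries below all LIM1215-R1 ones. Without LIM1215-R2 replicate 2 it was -1.64 (adjusted p = 0.0119), no longer called. IFITM2 was lower by a small step (-0.25, SE 0.06, adjusted p = 0.00912). EIF2AK2, given above, and DTX3L (0.22, SE 0.06, adjusted p = 0.00741) were higher in LIM1215-R2, in each case with no overlap. The EIF2AK2 call was kept without any 1 library, with log2 differences of 0.24 to 0.30. The calls of IFITM2 and DTX3L were each lost in 6 of the 9 such fits: without LIM1215-R1 replicate 2 or 3, without any library of LIM1215-R2 and, for IFITM2, without parental replicate 1 or, for DTX3L, without parental replicate 3. Over the 9 fits, the log2 difference ran from -0.29 to -0.20 for IFITM2 and from 0.20 to 0.26 for DTX3L. XAF1, at 1.11 (SE 0.34, adjusted p = 0.0291), and CMPK2, at 0.37 (SE 0.10, adjusted p = 0.0107), were not called, although CMPK2 was without parental replicate 2 (0.37, adjusted p = 0.00741), LIM1215-R1 replicate 2 (0.44, adjusted p = 0.00674) or LIM1215-R2 replicate 1 (0.44, adjusted p = 0.00952).

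Libraries of 1 line were not equally high. In LIM1215-R2, replicate 1 was the lowest of the line's libraries in 33 of 43 members without ties, beside 32.0% of all tested genes, and replicate 3 was the highest in 28 of 43, beside 36.6%. Of the 14 DEG members, 11 were lowest in replicate 1. In LIM1215-R1, replicate 3 was the highest in 20 of 44 and the lowest in 4, beside 27.1% and 27.8% of all tested genes. In the parental line, replicate 3 was the lowest in 18 and the highest in 6 of 42 members without ties, beside 29.7% and 31.2%. Without LIM1215-R2 replicate 1, 29 members were called higher in that line and 0 lower.

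The other genes of the interferon pathway, 39 in all, were read from a list of symbols ordered by role. Of the 26 tested, 5 were called higher and 5 lower in LIM1215-R1, beside 14.0% and 13.4% of all tested genes. In LIM1215-R2, 4 were called higher and 6 lower, beside 12.3% and 11.6%. These shares also stand beside the counts by role below. Of 12 interferon genes (IFNB1, IFNA1, IFNA2, IFNA5, IFNA8, IFNE, IFNK, IFNW1, IFNG, IFNL1, IFNL2 and IFNL3), 10 were at 0 counts in all 9 libraries. IFNA5 had 2 counts, both in LIM1215-R1 replicate 2, and IFNL1 had 1, in LIM1215-R2 replicate 1. None was tested. A sum of 0 over a line's 3 libraries allows a level of up to 0.0602 to 0.0622 CPM, which is 3 counts over those libraries and covers counting error only.

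Of 9 receptors and kinases, all tested, 1 was called higher and 2 lower in LIM1215-R1, and 1 higher and 3 lower in LIM1215-R2. IFNGR1, the ligand-binding chain for interferon gamma, was the one called higher, by 0.97 (SE 0.06) in LIM1215-R1 and 0.56 (SE 0.06) in LIM1215-R2, and it was lower in LIM1215-R2 than in LIM1215-R1 (-0.41, SE 0.06, adjusted p = 1.19e-05). IFNLR1, the specific chain for type III interferons, fell by 0.97 (SE 0.11) and 0.58 (SE 0.10) on the log2 scale. IFNAR2, of the type I receptor, fell by 0.27 (SE 0.07) and 0.25 (SE 0.07). IL10RB, the chain that type III interferons share with interleukin 10, was called lower in LIM1215-R2 alone (-0.50, SE 0.12, adjusted p = 0.00130), and was also lower there than in LIM1215-R1 (-0.47, SE 0.12, adjusted p = 0.00802). JAK1, JAK2, TYK2, IFNAR1 and IFNGR2 were not called.

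Of 12 genes of nucleic acid sensing upstream of interferon, which include adaptors besides sensors, 11 were tested, and ZBP1 was at 0 counts. In LIM1215-R1, 4 were called higher and 1 lower, and in LIM1215-R2 3 were called higher and 1 lower. STING1, the adaptor of cytoplasmic DNA sensing, was at 13.4, 13.4 and 12.9 CPM in the parental libraries, 36.0, 41.2 and 36.3 CPM in LIM1215-R1 and 27.3, 25.2 and 26.4 CPM in LIM1215-R2. The 3 lines did not overlap, with log2 fold changes of 1.52 (SE 0.08, adjusted p = 2.38e-14) and 0.99 (SE 0.09, adjusted p = 3.45e-10) and a difference between the resistant lines of -0.53 (SE 0.08, adjusted p = 1.70e-05). CGAS, the DNA sensor before STING1, had 29 counts: 20 in the parental line, 4 in LIM1215-R1 and 5 in LIM1215-R2. It was lower but not called in LIM1215-R1 (-2.14, SE 0.82, adjusted p = 0.0433) and LIM1215-R2 (-1.85, SE 0.79, adjusted p = 0.0779).

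DDX58 (RIG-I), the sensor of short uncapped RNA, rose by 0.48 (SE 0.10) and 0.59 (SE 0.10), and TRIM25, which activates it, by 0.20 (SE 0.05) and 0.24 (SE 0.05) on the log2 scale. IKBKE was called in LIM1215-R1 alone (0.47, SE 0.07, adjusted p = 6.18e-06), and its level in LIM1215-R2 was lower than in LIM1215-R1 (-0.28, SE 0.07, adjusted p = 0.00757). MAVS, the adaptor shared by the RNA sensors, fell by 0.26 (SE 0.05) and 0.22 (SE 0.05). Of 6 negative regulators, IRF2 fell by 0.39 (SE 0.07) and 0.47 (SE 0.07) and IRF2BP2, its corepressor, by 0.39 (SE 0.05) and 0.35 (SE 0.05); SOCS1, SOCS3, PIAS1 and PTPN2 were not called. Over the 26 tested pathway genes, the median log2 fold change was -0.03 in LIM1215-R1 and 0.00 in LIM1215-R2, beside 0.89 for the members in each.

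**Figure D5:**
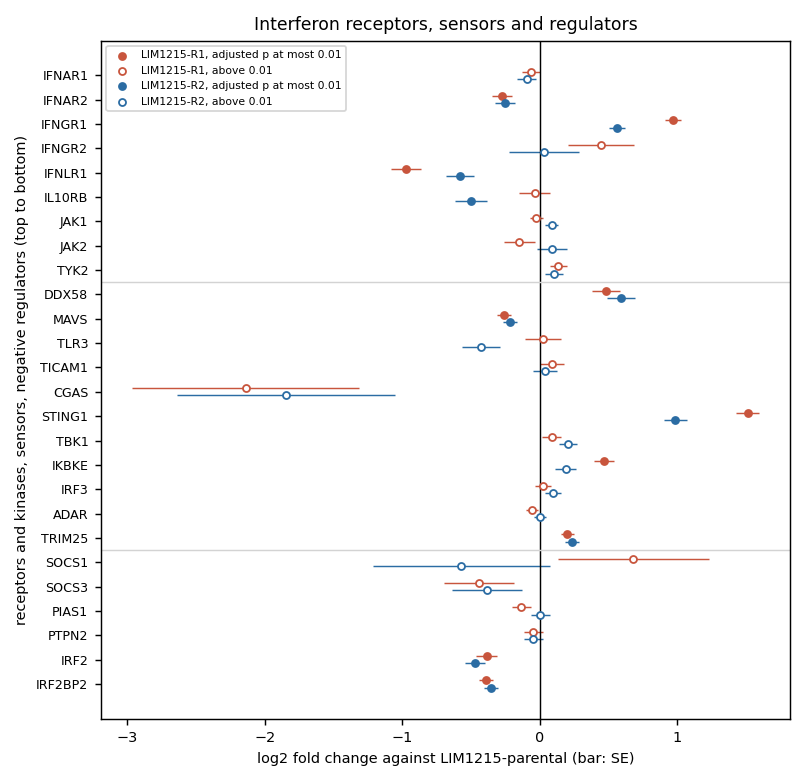
log2 fold change with its SE in LIM1215-R1 (red) and LIM1215-R2 (blue) against LIM1215-parental for the 26 tested pathway genes. They are receptors, kinases, genes of nucleic acid sensing and negative regulators. Filled points have an adjusted p of at most 0.01. STING1 (1.52 and 0.99) lies farthest to the right in both lines, and IFNLR1 (-0.97 and -0.58) has the lowest filled points.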

How the data were processed

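The RNA of each LIM1215 line, parental, R1 and R2 (3 libraries each, grouped by their titles), was made into stranded poly(A) libraries. Per the labels and the methods, the authors aligned paired-end reads to hg38 with STAR and counted them per gene and strand with HTSeq 0.9.1; the gene annotation is not given in the sources used here. The deposited values are raw counts, 1 table per library.

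From these counts, all 9 libraries were fitted together with edgeR 4.0.16 (R 4.3.3; TMM scaling, quasi-likelihood test) on the 19102 genes that reached 10 counts summed over the libraries, with Benjamini-Hochberg adjustment over all of them. The steps were tested on simulated data. The thresholds (adjusted p of 0.01, log2 fold change of 1.5) are the study's, which applied them to DESeq2 estimates after shrinkage; here they apply to unshrunken estimates. DESeq2 1.42.0 was run as an alternative, unshrunken. CPM are counts in 1000000 of a library's TMM-scaled counts. Replicates differed by more than sampling noise. Same-numbered libraries did not deviate together (correlations of -0.02 to 0.10), so no pairing was used.

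The 44 members and the pathway and marker lists were chosen with earlier results of these data known. Of the markers, 1 is not reported here. Members called in any comparison (adjusted p up to 0.01) with a log2 fold change reaching 1 in size are given per library; other called members are given with fold change and SE, and the rest by counts and ranges in their group. Values of members that were not called, and pathway genes under that size, were added after they were seen, since few stood in each group. Positions and promoters are from RefSeq, and strands and transcript lengths are from GENCODE 44. Intervals and floors cover counting error only.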

Additional observations from a re-analysis of the deposited data

Results flagged for a closer look

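The difference from the shared parental libraries was not the same in LIM1215-R1 and LIM1215-R2 for 4 members by edgeR's quasi-likelihood test of the difference itself, at a Benjamini-Hochberg adjusted p of at most 0.01. BST2 was lower in LIM1215-R2 by a log2 difference of -2.07, with 20 counts there and 85 in LIM1215-R1. IFITM2 was lower by -0.25. EIF2AK2 was higher in LIM1215-R2 by 0.27, and DTX3L by 0.22. As a share of the 44 members, 4.55% were called in each direction, beside 3.39% of all tested genes higher and 3.77% lower.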

How the results depend on the processing

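No called member changed direction in any alternative. The counts of members called higher ran from 24 to 27 in LIM1215-R1 and from 25 to 29 in LIM1215-R2 when 1 library was left out, and the counts of DEGs from 14 to 14 and from 13 to 14, with IRF9 and SAMD9L changing places in LIM1215-R1 without parental replicate 1; DEGs in LIM1215-R1 were 15 with no filter on low counts, after thinning and with the replicate block. The members called lower in LIM1215-R1 were 1 instead of 2 with DESeq2 size factors, the DESeq2 Wald test, at least 10 counts in every library, no filter on low counts, the 6 libraries of the comparison or thinning to the smallest library, and 1 to 2 without 1 library; those in LIM1215-R2 were 0 to 1. When every library had to reach 10 counts, 30 members were tested, and DEGs numbered 6 in LIM1215-R1, 5 in LIM1215-R2 and 0 between the resistant lines. Between the resistant lines, members called lower were 1 with scaling by total counts only and with at least 10 counts in every library. They were 0 to 2 without 1 library. Members called higher there were 1 after thinning and 1 to 3 without 1 library. They were 3 with scaling by total counts only, with no filter on low counts and with the replicate block. DEGs between the resistant lines were 0 to 1. Uncalled members changed sign without 1 library: in LIM1215-R1, IRF1 (-0.00459 to 0.101), SP100 (-0.048 to 0.14) and HERC5 (-0.91 to 0.30), and in LIM1215-R2, STAT2 (-0.0725 to 0.0618) and TRIM22 (-0.49 to 0.10). With the replicate block, 28 members were called higher and 3 lower in LIM1215-R1 (STAT2 at -0.24, adjusted p = 0.00619, which was also called with scaling by total counts only at -0.28, adjusted p = 0.00776, and SAMD9L at 1.79, adjusted p = 0.00929, were added), 27 and 1 in LIM1215-R2, and CMPK2 was added between the resistant lines (0.37, adjusted p = 0.00407). Few counts limit BST2, XAF1, IFI44L, IRF7, MX2, SAMD9L and HERC5, each with 117 counts or fewer over the 9 libraries. The cause of any changed call was not tested. The filtered and reduced fits also held fewer genes or libraries.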
